A study of Mus musculus with 9 samples.

Results

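The 3 libraries from glands of operated mice were set against the 6 libraries from glands of unoperated mice, out of 9 libraries in all. The operation was sleeve gastrectomy (SG), in which about 80% of the stomach is removed along its greater curvature. The tissue was submandibular plus sublingual gland of female C57BL/6 mice aged 34 weeks, and polyadenylated RNA was sequenced in 3 libraries from each of 3 groups. Mice entered the study at 4 weeks of age and received either standard chow (control) or a diet with 60% of calories from fat for 20 weeks to produce diet-induced obesity (DIO). The SG mice came from the fat-fed arm and were operated on at 24 weeks of age, under 2% isoflurane and after a 12-hour fast. The labels name no sham operation, no diet for the weeks after week 24 and no weight for any mouse. The SG group therefore differs from control by diet, anaesthesia, fast and surgery together, and from DIO by the last 3 and any later change of diet. Nothing in the labels says that each library is a separate animal, so a p-value here measures only how libraries vary, and some of that variation may be technical.

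The operated group was compared with the mean of control and DIO, each weighted equally, in a single fit of all 3 groups. A gene can score in this contrast because its SG level lies outside both unoperated groups, or because control and DIO differ and SG resembles only one of them. A second test therefore asked for an SG level that differed from control and from DIO in the same direction, with the larger of the 2 p-values kept. As a description, genes were also counted whose 3 SG values all lay above, or all below, the 6 unoperated values.

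Submandibular and sublingual glands make saliva in serous and mucous acini, and ducts of several types then change its salts and add growth factors and proteases. Ionocytes are scattered duct cells rich in proton pumps and marked by forkhead factors of the Foxi family. Secretion follows nerve signals, while glucocorticoids, the circadian clock and feeding also set the level of many gland transcripts. Bulk RNA gives a sum over all cells, so fewer cells of a type and less RNA per cell cannot be told apart.

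Totals ran from 36349885 to 43495564 counts per library, and 14912 genes had enough counts to be tested. Control library 2 stood apart, with a mean Spearman correlation of 0.973 with the others, against 0.985 to 0.987 for the other 8 libraries. It held the highest summed levels of B cell, T cell, adipocyte and parotid acinar markers, and values without it are given for several of the results it moved. Serous acinar markers (Bpifa2, Lpo, Prol1 and Aqp5) summed to 58519 to 98839 CPM (counts scaled to library size) in the unoperated libraries. In SG they summed to 91871 to 107035, and Prol1 made up most of these sums. Mucous acinar markers (Muc19 and Galnt12) summed to 909 to 2231 CPM in the unoperated libraries and 903 to 1422 in SG. Markers of both kinds of acini were thus present in every library. No 2 libraries of a group were copies: their counts differed by at least 29.7 times the sampling variance expected of the same library.

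No gene passed an adjusted p of 0.05 in the SG contrast (edgeR quasi-likelihood test with Benjamini-Hochberg adjustment, 0 of 14912, 0%), and the smallest adjusted p was 0.284. An unadjusted p under 0.05 was found for 1114 genes (7.47%), of which 465 were higher in SG (3.12%) and 649 lower (4.35%). In limma voom 0 genes passed, with 896 at an unadjusted p under 0.05, and in DESeq2 37 genes passed of 13708 with an adjusted p (0.27%), 13 higher and 24 lower. The test of both groups also passed no gene (0%). Its unadjusted p was under 0.05 for 252 genes (1.69%), 92 higher and 160 lower, and in DESeq2 it passed 1 gene, Tsc22d3, with an adjusted p of 0.0073. The 3 SG values lay outside all 6 unoperated values for 420 genes (2.82%), above them for 216 (1.45%) and below them for 204 (1.37%). With library totals in place of TMM scaling these counts were 96 above and 196 below, and with the authors' FPKM values 96 and 195. Counts of list members below are to be set beside the shares of all genes tested. Those shares were 7.47% at an unadjusted p under 0.05 in edgeR, 1.45% above and 1.37% below all unoperated values. Since no gene passed in edgeR, all values below are given as levels and differences that did not pass the main test, except where DESeq2 is named. In DESeq2 25 of the 121 genes chosen for naming passed the SG contrast, most of them described below without that value. Among them, by DESeq2 adjusted p, were Tsc22d3 (6.89e-06), Kcnk6 and Dclk2 (6.93e-05 each), and Ccn2 and Edem1 (0.000745 each). Klf2 (0.00271), Aplnr (0.00300), Nceh1 (0.00569), Sec24a (0.00914) and Per1 (0.00927) also passed there.

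A set of 5 stretches of promoter is printed first, because they come from genes of 4 lists described below, and 4 of these genes had SG levels below every unoperated library (Btg2 overlapped). The stretches are taken from RefSeq promoter windows of build GRCm38.p6, which run from 250 bases before to 50 after a gene's start, and 80 bases around the match are shown 5′ to 3′ on the gene's strand. The first base of the match lies 143 bases before the start in Dusp1, 51 in Errfi1, 166 in Btg2, 166 in Per1 and 105 in Dnajc3. Capitals mark a match to TGACGTCA, the cyclic AMP response element, in Dusp1, Errfi1 and Btg2. The Dusp1 stretch also holds CACGTG, left in lower case. In Per1 capitals mark the E-box CACGTG bound by clock factors, and in Dnajc3 the endoplasmic reticulum (ER) stress element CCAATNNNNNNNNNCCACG.
Dusp1, chr17:26508572-26508651, minus strand: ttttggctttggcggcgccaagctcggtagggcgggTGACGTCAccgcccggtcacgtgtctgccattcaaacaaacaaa
Errfi1, chr4:150854983-150855062, plus strand: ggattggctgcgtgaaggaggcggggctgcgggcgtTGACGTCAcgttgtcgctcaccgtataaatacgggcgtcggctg
Btg2, chr1:134079278-134079357, minus strand: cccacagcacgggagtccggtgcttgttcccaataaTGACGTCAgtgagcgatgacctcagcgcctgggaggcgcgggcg
Per1, chr11:69098746-69098825, plus strand: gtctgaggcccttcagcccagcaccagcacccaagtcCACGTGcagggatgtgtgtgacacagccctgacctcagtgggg
Dnajc3, chr14:118937796-118937875, plus strand: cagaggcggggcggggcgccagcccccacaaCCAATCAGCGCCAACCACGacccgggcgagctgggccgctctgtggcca

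Both strands of the whole window were searched, and matches of different motifs did not overlap in the stretches shown. A gene was counted if any of its windows held the motif. Of all 27025 genes with a window, 2.03% held TGACGTCA, 8.09% CACGTG and 0.137% the ER stress element. Of 19 immediate early genes with a window, 2 held TGACGTCA, and of 14 glucocorticoid-responsive genes 2 did. Of 15 clock genes 5 held CACGTG, and of 19 ER folding genes 8 held the ER stress element. The palindromic site of the glucocorticoid receptor (GNACA and TGTNC with 3 bases between) was found in 3 of 14 glucocorticoid-responsive genes (Map3k6, Mt1 and Sgk1) and in 0.537% of all genes with a window. These are matches of letters and say nothing of what bound there.

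The gene with the smallest p of all is one known to respond to glucocorticoids. Tsc22d3, which encodes the glucocorticoid-induced leucine zipper GILZ, measured 57.5, 70.7 and 64.4 CPM in control, 58.9, 60.1 and 66.7 in DIO, and 38.5, 38.7 and 45.9 in SG. All 3 SG values lay below all 6 unoperated ones, and control and DIO overlapped (a DIO minus control difference of -0.05 ± 0.10 on the log2 scale, SE). The SG contrast was -0.62 ± 0.09 on the log2 scale (SE), with a 95% interval from -0.83 to -0.42 and an edgeR adjusted p of 0.284. Leaving out each library in turn gave -0.71 to -0.58, and Tsc22d3 had the smallest p of all genes in both tests.

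Errfi1, a feedback inhibitor of the EGF receptor, measured 58.0, 71.4 and 74.2 CPM in control, 70.6, 59.4 and 65.1 in DIO and 47.1, 47.1 and 53.7 in SG. Per1, a repressor of the clock that glucocorticoids also induce, measured 104, 98.3 and 128 CPM in control, 104, 98.2 and 123 in DIO and 55.6, 53.3 and 91.0 in SG. Both had SG values below every unoperated one, and SG 3 was the SG library nearest to them for Per1. Dusp1, a phosphatase that switches off MAP kinases, measured 6.62, 9.96 and 16.1 CPM in control, 7.14, 7.05 and 54.9 in DIO and 6.30, 4.08 and 4.52 in SG, with DIO 3 far above the others. Its SG values lay below the rest by a narrow margin.

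The list as a whole was mixed. Of 17 measured glucocorticoid-responsive genes 13 were lower and 4 higher in SG, 5 had an unadjusted p under 0.05, all lower, and 4 lay below all unoperated values (Tsc22d3, Errfi1, Per1 and Dusp1). Its median difference was -0.13 on the log2 scale, beside 0.00 for all genes tested. It was -0.25 without control 3 and -0.091 without control 2. The kinase Sgk1 averaged 75.3 CPM in SG against 84 in control and 106 in DIO, while the cochaperone Fkbp5 had a contrast of -0.05 ± 0.14 with a DIO minus control difference of 0.88. Nr3c1, the glucocorticoid receptor itself, had a contrast of -0.06 ± 0.14. Zbtb16, another induced gene, measured 2.66, 3.92 and 3.82 CPM in control, 28.4, 23.5 and 30.6 in DIO and 22.3, 4.60 and 10.4 in SG, so its SG values lay between the unoperated groups.

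Immediate early genes, which are transcribed within minutes of a stimulus and share Dusp1 with the glucocorticoid-responsive list, leaned the same way. All 23 measured members had a lower SG level, 8 with an unadjusted p under 0.05 and 3 below all unoperated values (Klf2, Egr2 and Dusp1), and their median was -0.38. Klf2, a factor of endothelial cells and resting lymphocytes, measured 5.72, 16.6 and 10.3 CPM in control, 8.30, 7.99 and 9.46 in DIO and 4.78, 2.93 and 4.16 in SG. SG lay below all unoperated libraries, the contrast was -1.29 ± 0.29, and leaving out control 2 moved it to -1.07.

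Single libraries stood far above the rest for some members. Fosb was at 10.2 CPM in control 3 and at 0.681 or less in the other 8 libraries, and Fos was at 13.7 CPM there and at 3.94 or less elsewhere. Jun was at 118 CPM in DIO 3 and at 30.1 to 53.4 in the others. The list's median moved to -0.18 without control 3. The antiproliferative gene Btg2 measured 33.3, 36.1 and 40.0 CPM in control, 48.1, 38.6 and 66.9 in DIO and 32.2, 25.5 and 35.2 in SG, with SG 3 inside the control range. The nuclear receptor Nr4a3 averaged 4.13 CPM in control, 5.91 in DIO and 2.74 in SG, also with overlap. The part of tissue handling in these levels was not tested.

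**Figure D1:**
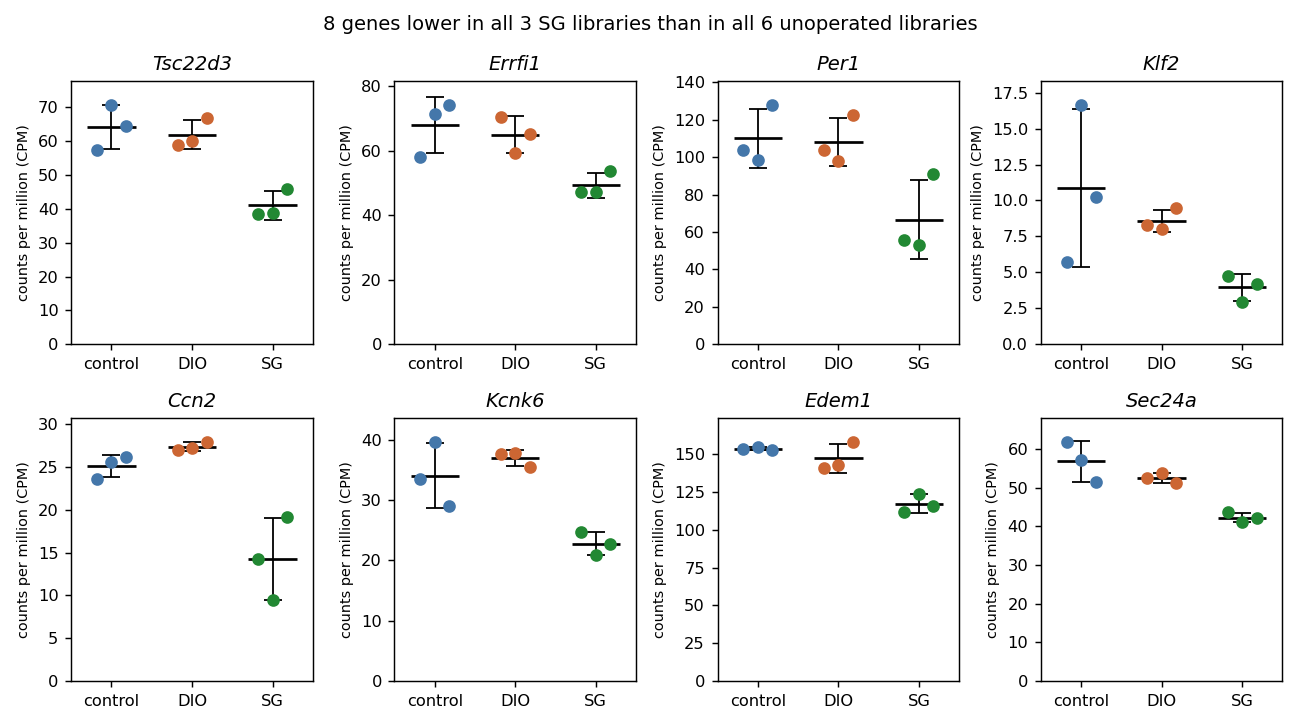
Level of 8 genes in each library, in CPM from 0, by group, with each point 1 library, the horizontal line the group mean and the bar 1 SD (n = 3). In every panel the 3 SG points lie below the 6 unoperated points, and for Tsc22d3 they run from 38.5 to 45.9 CPM against 57.5 to 70.7.

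The other lower genes with the smallest p had varied functions. Ccn2, a secreted matrix-associated protein also called CTGF, measured 23.6, 25.6 and 26.2 CPM in control, 27.0, 27.3 and 28.0 in DIO and 14.2, 9.50 and 19.1 in SG. The unoperated values spanned a narrow range and the SG values were spread widely below it, with a contrast of -0.88 ± 0.17. Ccn2 was the 1 member of 30 measured fibroblast and matrix genes with an unadjusted p under 0.05, a smaller share than the 7.47% of all genes tested. The list's median was -0.19 (-0.079 without SG 3), and Col14a1, the member with the next smallest p, had a contrast of -0.23 ± 0.12.

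Kcnk6, a background potassium channel, measured 33.4, 39.7 and 29.0 CPM in control, 37.7, 37.8 and 35.5 in DIO and 24.6, 21.0 and 22.8 in SG. SG lay below all unoperated libraries (contrast -0.64 ± 0.10), and it had the second smallest p of the test of both groups, 0.000356 before adjustment. Adgrl1, an adhesion receptor of the latrophilin family, averaged 15.5 CPM in control, 14.4 in DIO and 11.3 in SG. Traf3, an adaptor that restrains noncanonical NF-kB signalling, averaged 25.1, 26.7 and 20.3 CPM in the same order. In both, SG lay below every unoperated library.

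A few genes of the secretory pathway were lower as well. Edem1, which hands misfolded glycoproteins to degradation, measured 154, 155 and 153 CPM in control, 141, 143 and 158 in DIO and 112, 124 and 116 in SG. Sec24a, a cargo adaptor of the COPII coat that leaves the ER, measured 61.9, 57.3 and 51.4 CPM in control, 52.5, 53.8 and 51.1 in DIO and 43.6, 41.1 and 42.1 in SG. SG lay below all unoperated libraries for both, with contrasts of -0.36 ± 0.07 and -0.37 ± 0.07. Dnajc3, an inhibitor of the ER stress kinase PERK, averaged 382 CPM in control, 378 in DIO and 326 in SG, with SG again below all other libraries.

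Of 22 measured ER folding genes 18 were lower and 4 higher in SG. Of these 22, 4 had an unadjusted p under 0.05, all lower, beside 7.47% of all genes tested with such a p. Below all unoperated values lay 2 of them, beside 1.37% of all genes tested. The median was only -0.09 and moved between -0.20 without SG 2 and -0.03 without SG 1. The main ER chaperone Hspa5 had SG values of 518, 701 and 583 CPM beside 583 to 733 in the unoperated libraries (contrast -0.14 ± 0.11). Xbp1, the transcription factor of this response, had a contrast of 0.05 ± 0.11.

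For the remaining lower genes named by smallest p, the means of control and DIO lay apart as well. None of them passed for DIO against control (edgeR adjusted p from 0.0993 for Dclk2 to 0.489 for Gadd45g), and control and DIO overlapped for Gadd45g. Dclk2, a kinase of the doublecortin family, measured 3.46, 3.90 and 3.75 CPM in control, 1.21, 1.23 and 0.799 in DIO and 0.787, 0.312 and 0.583 in SG. SG was lowest, but the DIO minus control difference was already -1.77 ± 0.33 on the log2 scale, and the SG value nearest to DIO was almost equal to it. Tob2, an antiproliferative relative of Btg2, averaged 74.9, 60.2 and 45.5 CPM in control, DIO and SG, and Gadd45g, a stress-responsive growth regulator, averaged 13.6, 10.3 and 6.57. Cdr2 averaged 15.8, 20.4 and 12.8 CPM. For each of these 3 genes the SG libraries lay below all others.

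Among genes with a higher level, receptors and enzymes of lipid and retinoid metabolism had the smallest p. Mc4r, the melanocortin receptor best known for appetite control in the hypothalamus, measured 1.57, 0.969 and 1.37 CPM in control, 1.12, 0.943 and 1.57 in DIO and 2.69, 2.91 and 2.78 in SG. The SG values lay close together above all the others, at a low level of expression. Its contrast was 1.15 ± 0.24, with a 95% interval from 0.63 to 1.68, and 1.06 to 1.27 with each library left out in turn. The edgeR adjusted p was 0.425, and in DESeq2 it was 0.0104.

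Aplnr, the apelin receptor of endothelial cells, measured 0.984, 1.44 and 1.15 CPM in control, 0.728, 0.970 and 0.799 in DIO and 1.57, 4.10 and 3.11 in SG. SG 1 lay just above control 2, and the other 2 SG libraries lay well above it (contrast 1.55 ± 0.29). Of 18 measured endothelial genes 16 were higher and 2 lower, with a median of 0.20 (0.11 without SG 3 and 0.34 without SG 1). Only 1 of the 18 had an unadjusted p under 0.05 (Robo4, 0.50 ± 0.21), a smaller share than the 7.47% of all genes tested. The markers Pecam1 and Cdh5 summed to 30.6, 50.5 and 43.7 CPM in SG 1, SG 2 and SG 3, so they were lowest in the same SG library as Aplnr. In the unoperated libraries they summed to 28.9 to 53.2, with the highest sum in control 2, where Aplnr was at 1.44 CPM. Their part in the Aplnr level was not tested.

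Nceh1, a hydrolase of stored cholesterol esters, measured 29.8, 30.8 and 31.4 CPM in control, 32.6, 34.4 and 33.7 in DIO and 40.1, 45.4 and 38.8 in SG. Aldh1a3, which makes retinoic acid, measured 17.7, 12.8 and 13.8 CPM in control, 13.4, 13.3 and 15.2 in DIO and 19.8, 20.7 and 19.7 in SG. Neither gene overlapped between SG and the rest, and their contrasts were 0.37 ± 0.07 and 0.48 ± 0.10.

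Lrrc8d, a subunit of volume-regulated anion channels, averaged 46.0 CPM in control, 47.1 in DIO and 58.4 in SG, and Clip4, a protein with microtubule-binding domains, averaged 14.8, 14.7 and 19.9. Lrrc57 averaged 8.57, 8.57 and 11.2 CPM. Efna1, a ligand of Eph receptors, averaged 15.0, 16.9 and 19.6, and Snapin, a protein of vesicle fusion and lysosome transport, averaged 19.3, 15.3 and 22.4. All 5 had SG libraries above every other.

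**Figure D2:**
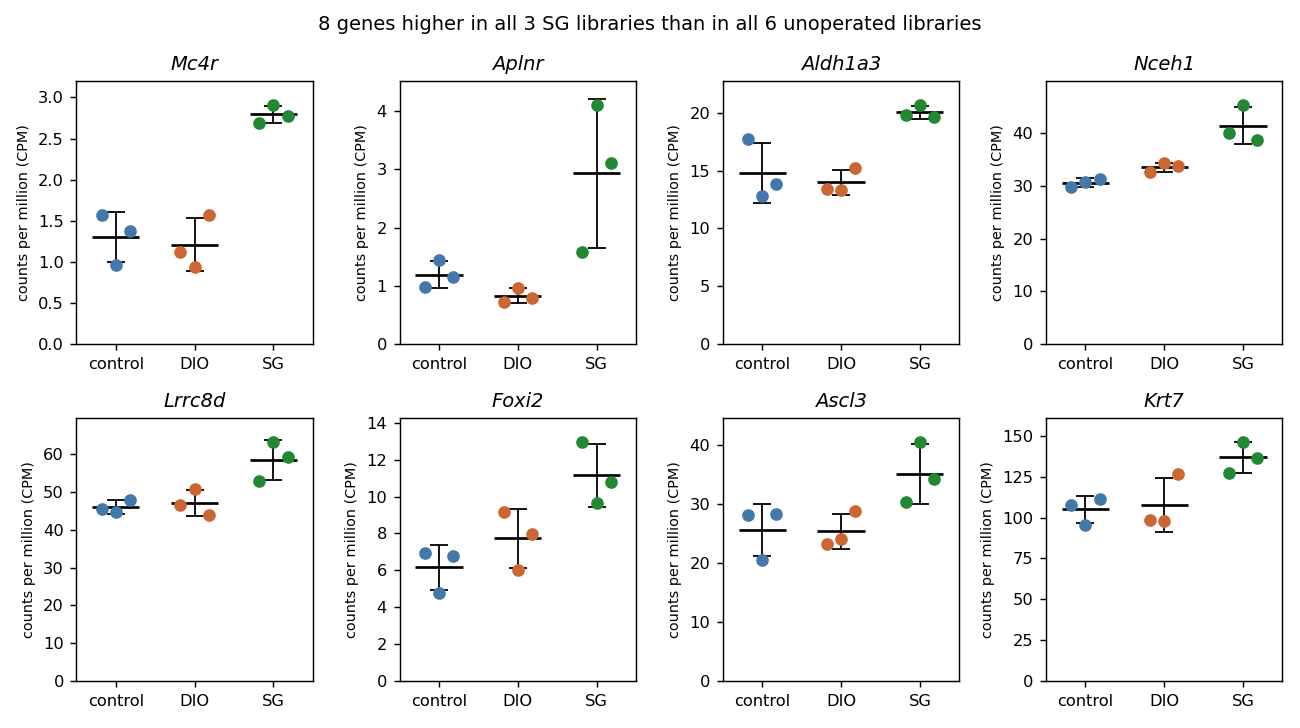
Level of 8 genes in each library, in CPM from 0, by group, with each point 1 library, the horizontal line the group mean and the bar 1 SD (n = 3). The 3 SG points lie above the 6 unoperated points in every panel, and for Mc4r they run from 2.69 to 2.91 CPM against 0.943 to 1.57.

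Duct and ionocyte genes were the epithelial list with the largest share of members above all unoperated values. Of 20 measured members 16 were higher and 4 lower in SG, 8 had an unadjusted p under 0.05, all higher, and 5 lay above all unoperated values (Foxi2, Ascl3, Krt7, Atp6v0d2 and Atp6v1b1). The median was 0.24 and ran from 0.18 to 0.27 with each library left out. Foxi2, a forkhead factor of duct cells, measured 6.94, 4.75 and 6.78 CPM in control, 9.18, 6.03 and 7.99 in DIO and 13.0, 9.66 and 10.8 in SG. Ascl3, which marks ionocytes and duct progenitors, measured 28.1, 20.5 and 28.3 CPM in control, 23.2, 24.1 and 28.8 in DIO and 30.4, 40.6 and 34.2 in SG. The contrasts were 0.69 ± 0.17 and 0.46 ± 0.12, and neither passed in DESeq2.

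The proton pump subunits Atp6v0d2 and Atp6v1b1 had contrasts of 0.30 ± 0.09 and 0.30 ± 0.11, and the simple keratin Krt7 one of 0.36 ± 0.10. For Krt7 the lowest SG value was 128 CPM and DIO 3 stood at 127, so the separation was slight. Foxi1, the factor that specifies ionocytes, measured 14.6, 14.7 and 18.1 CPM in control, 26.1, 20.4 and 22.5 in DIO and 29.2, 18.4 and 22 in SG, so DIO and SG overlapped. Among channels, the sodium channel subunit Scnn1b had a contrast of 0.40 ± 0.13 with overlap, while Scnn1a had 0.09 ± 0.12 and the chloride channel Cftr -0.24 ± 0.18.

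Transcription factors of gland lineages showed small differences. Of 26 measured members 20 were higher and 6 lower in SG, 6 higher and 1 lower with an unadjusted p under 0.05, and 4 above all unoperated values, among them Grhl2, Foxc1 and Tfap2b, with a median of 0.09. Elf3, an epithelial ETS factor, averaged 33.4, 42.7 and 48.9 CPM in control, DIO and SG, with a DIO level between control and SG. Spdef, a factor of mucous secretory cells, was the member with an unadjusted p under 0.05 in the other direction, at -0.27 ± 0.12.

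The secretory products of the gland did not separate. Of 17 serous acinar genes 7 were higher and 10 lower, and 0 lay outside all unoperated values. Prol1, a proline-rich saliva protein and one of the most abundant transcripts, averaged 83613 CPM in control, 71784 in DIO and 95641 in SG, with a contrast of 0.30 ± 0.15 and a 95% interval from -0.02 to 0.62. The water channel Aqp5 had a contrast of 0.09 ± 0.12 and an interval from -0.17 to 0.35, and the muscarinic receptor Chrm3 had 0.02 ± 0.07 and an interval from -0.13 to 0.17. In Slc12a2, the chloride uptake transporter of acini, SG averaged 1406 CPM against 1257 in control and 1166 in DIO, with a contrast of 0.22 ± 0.09.

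Granular duct genes, which encode growth factors and kallikreins, were higher for 19 of 21 members with a median of 0.30, but 0 lay outside all unoperated values. This list's median was 0.62 against control alone and 0.092 against DIO alone, and the DIO minus control median was 0.44. Egf measured 1079, 605 and 738 CPM in control, 1174, 887 and 1107 in DIO and 973, 1358 and 881 in SG, with an interval of the contrast from -0.21 to 0.63. Klk1 had an interval from -0.11 to 0.47. The list's median was 0.04 without SG 2, the library with the highest Egf, and 0.53 without SG 3. Of 15 mucous genes 12 were lower and 3 higher (median -0.21, with -0.37 without SG 1 and -0.12 without SG 2). Muc19, the main mucin of sublingual glands, had a contrast of -0.11 ± 0.25, and Agr2, a mucin folding enzyme, measured 28.9, 25.8 and 14.6 CPM in SG beside 26.4 to 40.1 elsewhere.

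Smgc, an alternative product of the same locus as Muc19, had a contrast of 0.02 ± 0.38. Amy1, the amylase of parotid acini, measured 1673, 8377 and 412 CPM in control, 240, 12.3 and 101 in DIO and 1673, 11.8 and 48.5 in SG. Its SG values ran from just under the lowest unoperated value to the level of control 1. How much parotid tissue entered each sample cannot be told apart from its level per cell.

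In the SG contrast metabolic lists gave opposite signs for fat use and fat synthesis, though the synthesis median was negative only against control. Of 21 fatty acid oxidation genes 15 were higher and 6 lower, with 6 higher and 1 lower at an unadjusted p under 0.05 and a median of 0.17 (0.085 without SG 2). Acadm, a mitochondrial acyl-CoA dehydrogenase, measured 49.9, 53.8 and 54.5 CPM in control, 48.8, 43.8 and 50.9 in DIO and 58.4, 60.5 and 56.4 in SG, all above the rest. Ucp2, a mitochondrial carrier protein, also lay above the rest, by a small margin in SG 1 (249 CPM beside 248 in control 1). Bdh1, an enzyme of ketone bodies, averaged 14.9, 13.8 and 10.7 CPM, with SG below all other libraries. Ucp3 averaged 1.03, 2.33 and 3.07, with DIO and SG overlapping.

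Of 22 genes of fatty acid and triglyceride synthesis 17 were lower and 5 higher, 4 had an unadjusted p under 0.05, all lower, and the median was -0.17 (-0.094 without control 2). This list's median was -0.27 against control alone and 0.0014 against DIO alone, and the DIO minus control median was -0.26. Scd1, which desaturates newly made fatty acids, measured 106, 320 and 152 CPM in control, 144, 151 and 146 in DIO and 95.3, 67.7 and 105 in SG. SG 3 lay just below control 1. The Scd1 contrast of -0.91 ± 0.29 was -0.63 without control 2, the library richest in adipocyte markers (Adipoq, Plin1 and Cidec summed to 23.6 CPM there, to 1.12 and 4.55 in the other control libraries, to 0.155 to 4.20 across DIO and to 0.305 to 2.60 across SG). Cholesterol synthesis genes were higher for 19 of 21 members with 0 outside (median 0.15). That median was -0.11 without SG 1 and 0.31 without SG 2, so its sign changed without SG 1. With all libraries it was -0.15 against control alone and 0.43 against DIO alone, and the DIO minus control median was -0.56. Fdft1, a squalene synthase, averaged 39.5, 23 and 41 CPM, so SG was near control and DIO was low.

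In the hypoxia list, 12 genes were higher and 8 lower, and 1 lay on each side of all unoperated values. Egln3, an oxygen-sensing prolyl hydroxylase, measured 17.3, 21.2 and 22.4 CPM in control, 26.9, 23.5 and 26.9 in DIO and 28.3, 30.9 and 32.3 in SG. Hk2, a hexokinase of glycolysis, measured 60.1, 64.6 and 63.4 CPM in control, 59.4, 56.9 and 66.3 in DIO and 50.2, 45.3 and 53.8 in SG. The 2 targets thus lay apart from the unoperated libraries in opposite directions.

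Clock genes illustrated the difference between the contrast and the test of both groups. Of 20 members 10 were higher and 10 lower, and only Per1 lay outside all unoperated values. Dbp, a clock output factor, measured 180, 143 and 183 CPM in control, 39, 69.3 and 63.9 in DIO and 125, 173 and 172 in SG. Its contrast was 0.67 ± 0.17 because DIO was low (DIO minus control -1.56 ± 0.21, edgeR adjusted p 0.033), and its p in the test of both groups was 1. Nr1d1, the clock repressor REV-ERB alpha, averaged 124, 45.4 and 96.5 CPM, and the chaperone Hspa8 averaged 527, 1012 and 587. SG overlapped control for Dbp and Hspa8, and for Nr1d1 all SG values lay between DIO and control. Nr1d1 and Hspa8, like Dbp, passed for DIO against control, as did 14 genes in all.

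**Figure D3:**
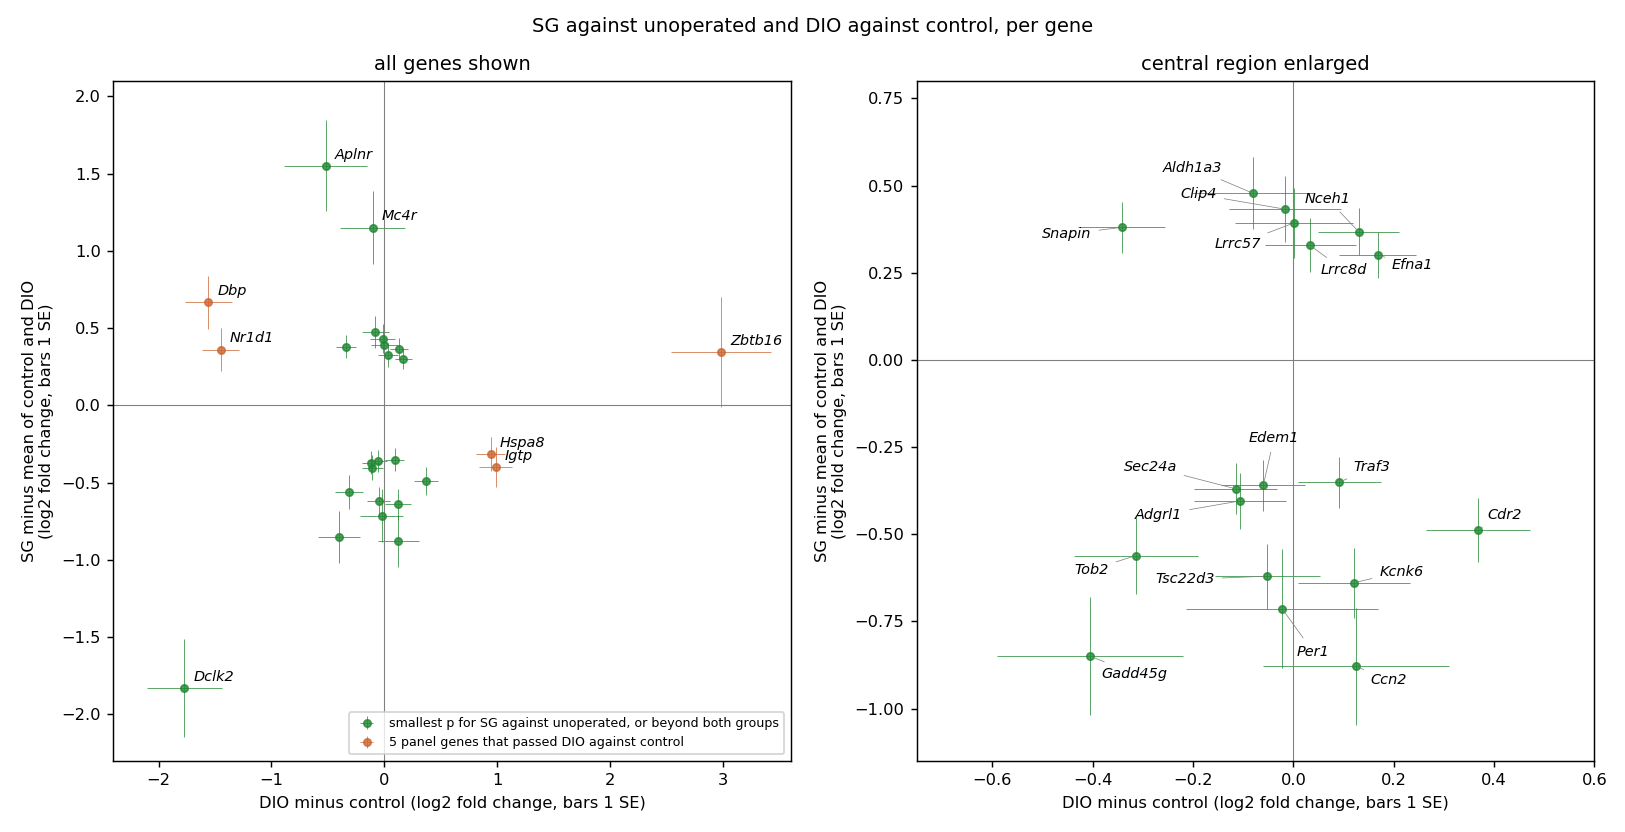
DIO minus control (horizontal) against SG minus the mean of control and DIO (vertical), in log2 fold change with bars of 1 SE, for 21 of the genes with the smallest p and 5 panel genes, with the centre enlarged on the right. Tsc22d3, Per1, Mc4r and Lrrc57 lie near 0 on the horizontal axis, at -0.05, -0.02, -0.10 and 0.00, while Dbp and Nr1d1 lie at -1.56 and -1.45.

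Interferon gamma and MHC class II genes had lower SG levels, as had 16 of 20 MHC class I genes and 20 of 25 type I interferon genes. Of 22 interferon gamma genes 21 were lower, 13 with an unadjusted p under 0.05, and all 11 MHC class II genes were lower, 8 of them with such a p. The medians were -0.57 and -0.53, and 0 genes of either list lay below all unoperated values. Without control 2 the MHC class II median was -0.41. Igtp, an interferon-induced GTPase, measured 11.6, 10.8 and 8.76 CPM in control, 24.2, 19.5 and 18.0 in DIO and 12.4, 11 and 9.85 in SG, so SG overlapped control. Against control alone the 2 list medians were -0.25 and -0.28, and against DIO alone -1.12 and -0.78. These comparisons share the SG libraries. The MHC class I and type I interferon lists had medians of -0.20 and -0.088, and of 0.02 and 0.013 against control alone. Of 24 macrophage and dendritic cell genes 8 were higher and 16 lower (median -0.02), and the fractalkine receptor Cx3cr1 was higher at an unadjusted p of 0.00571 (contrast 0.45 ± 0.13).

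The medians of the lymphocyte lists depended on control 2. All 13 B cell genes were lower (median -2.77, and -0.97 without control 2), as were 20 of 23 T and NK cell genes (median -1.80, and -0.77 without control 2). Only Nkg7, a granule protein of cytotoxic cells, and Cd28, a T cell costimulator, lay below all unoperated values among the T and NK genes. Nkg7 measured 1.70, 3.18 and 1.61 CPM in control, 4.25, 3.28 and 3.95 in DIO and 1.30, 1.48 and 1.22 in SG.

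The 30 cell cycle genes were all lower in SG (median -1.41, and -0.62 without control 2), 15 with an unadjusted p under 0.05 and 3 below all unoperated values (Rrm2, Aurkb and Top2a). Rrm2, a subunit of ribonucleotide reductase, measured 4.52, 11.9 and 3.66 CPM in control, 5.80, 5.79 and 4.74 in DIO and 3.12, 3.30 and 2.86 in SG. Its contrast was -0.96, and -0.61 without control 2. Control 2 was also the highest library of Top2a (29.4 CPM, 2.11 to 7.97 in the others). The same library held the most lymphocyte markers, and their part in the cell cycle levels was not tested.

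**Figure D4:**
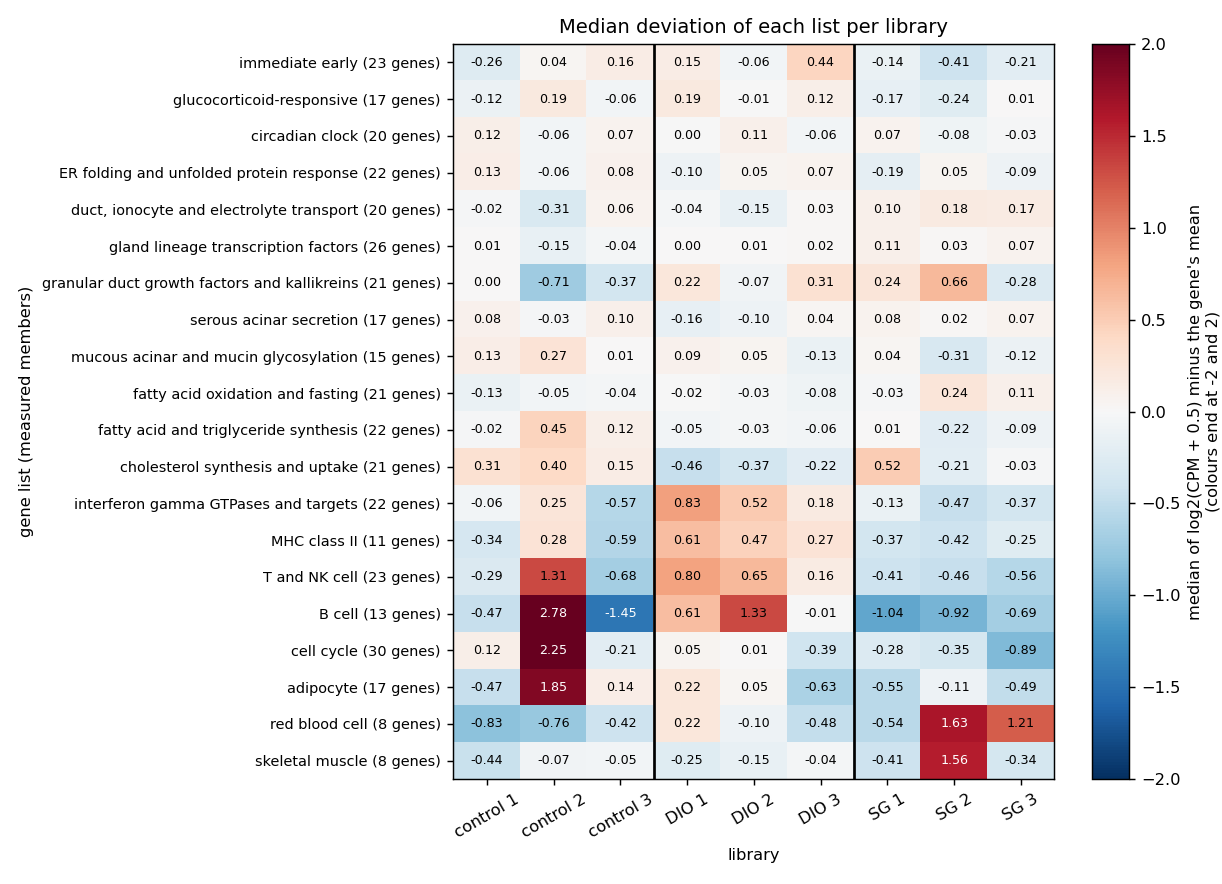
Median deviation of 20 gene lists in each of 9 libraries, as log2(CPM + 0.5) minus each gene's mean over the libraries, with red above and blue below the mean. B cell genes reach 2.78 in control 2 and lie between -1.04 and -0.69 in SG, while red blood cell genes are at -0.54 in SG 1, 1.63 in SG 2 and 1.21 in SG 3.

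The highest list medians on the positive side rested on 1 or 2 operated libraries. All 8 red blood cell genes were higher (median 1.47), and Hbb-bs, an adult beta globin, measured 23.2, 29.3 and 34.9 CPM in control, 70.1, 47.3 and 37.6 in DIO and 36.7, 244 and 136 in SG. SG 1 thus lay within the unoperated range. Without SG 1, 4 genes passed in edgeR (0.0264% of 15170), all of red blood cells: Hbb-bs, Hba-a1, Alas2 and Hbb-bt, with adjusted p from 0.0205 to 0.0364. How much blood the tissue held was not tested. Of 8 skeletal muscle genes 7 were higher (median 1.25), through SG 2 alone. Its Acta1, the actin of skeletal muscle, stood at 11.5 CPM, against 0.105 to 0.625 in the other 8 libraries, and the list's median was -0.54 without it.

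**Figure D5:**
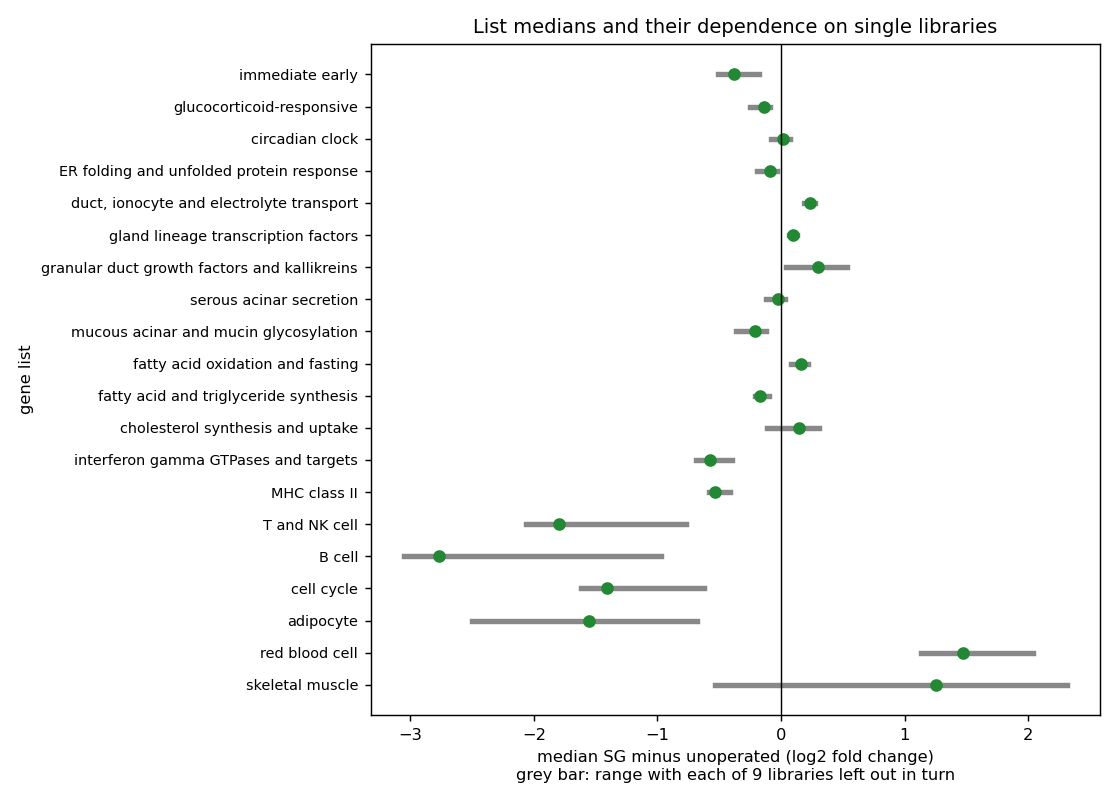
Median log2 fold change of SG minus unoperated for 20 gene lists (green points) with the range of that median when each of the 9 libraries was left out in turn (grey bars). Duct and ionocyte genes stay between 0.18 and 0.27, B cell genes range from -3.05 to -0.97, and skeletal muscle genes cross 0.

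Few genes of gut and satiety hormone signalling passed the filter on low counts. Of 31 genes for gut and satiety hormones and their receptors 12 had enough counts, 5 higher and 7 lower, with 0 at an unadjusted p under 0.05. Mc4r, described above, is not in that list. Gcgr, the glucagon receptor, averaged 4.19, 3.52 and 5.27 CPM in control, DIO and SG (contrast 0.46 ± 0.25), and Lepr, the leptin receptor, averaged 4.26, 2.21 and 2.29, with control 2 the highest library. Of 20 insulin and FoxO target genes 3 had an unadjusted p under 0.05, all lower. Klf15, a factor of fasting metabolism that glucocorticoids induce, averaged 82.1, 73.4 and 58.5 CPM, with SG 3 at 70.8 and DIO 1 at 68.7, so the groups overlapped.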

How the data were processed

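The members and gene lists were chosen with earlier results of these data known. The authors deposited whole-number read counts per gene for 23256 genes and FPKM values, a unit scaled for transcript length and depth. HISAT2, Salmon and build GRCm39 are named per the submitters' processing notes, without versions or roles. The sources used here do not give the strand setting or annotation release. Counts were filtered by edgeR's filterByExpr, scaled by TMM and tested with edgeR 4.0.16 (quasi-likelihood, contrast of SG with the equal-weight mean of control and DIO, 3 groups, 6 residual degrees of freedom) in R 4.3.3, with Benjamini-Hochberg adjustment over 14912 genes and a threshold of 0.05. The code was tested on simulated data. CPM values are TMM-scaled, and list levels used log2(CPM + 0.5). Alternatives were DESeq2 1.42.0, limma 3.58.1 voom, other scalings and filters, a 2-group fit, the replicate block and leaving out each library. No gene passed, so for each of the 2 tests the 8 genes per side with the smallest p, 1 CPM or more as any group's mean, and a named symbol were described as not passing, besides a panel of 14 genes and for each of 46 lists the 2 members with the smallest p. Members outside all unoperated values, and a few others, were named after their values were seen. Some genes that the rule names are not reported here.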

Additional observations from a re-analysis of the deposited data

How the results depend on the processing

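In DESeq2 37 genes passed the SG contrast and 1 the test of both groups. Leaving out each library in turn gave 0 to 4 passing genes (4 without SG 1) and 0 in the test of both groups, in edgeR. Other scalings, filters and a 2-group fit gave 0, with a smallest adjusted p of 0.0642 without a filter. Genes outside all unoperated libraries numbered 520 to 1542 with 1 library fewer, an alternative chosen after seeing the data, since fewer libraries separate more easily by construction, and the count exceeded 1.5 times 420 without control 3, DIO 3 or any SG library (718 to 1542). With the replicate block 0 genes passed, 1190 had an unadjusted p under 0.05 and the smallest adjusted p was 0.166. Same-numbered libraries correlated between -0.0934 and 0.307 in their deviations, and differently numbered ones between -0.315 and 0.246. These ranges overlap, so the correlations cannot decide whether the numbers mark pairs. The numbers were not taken as pairs because the labels do not say that they pair animals.

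Of 121 named genes 12 changed sign in an alternative, and the cause was not tested. With each library left out in turn, log2 differences ran for Atf5 from -0.49 to 1.19, for Acta1 from -0.54 to 4.22, for Mb from -0.53 to 3.55, for Smgc from -0.49 to 0.32, for Muc19 from -0.21 to 0.080, for Amy1 from -4.41 to 0.72, for Aqp5 from -0.0082 to 0.17, for Chrm3 from -0.029 to 0.066, for Zbtb16 from -0.38 to 0.75. With control 2 and SG 2 both left out, also chosen after seeing the data, they were -0.62 for Atf5, -0.49 for Acta1, -0.50 for Mb, -0.077 for Egf, 0.25 for Muc19, 1.30 for Amy1, -0.018 for Klk1 and 0.18 for Lepr. The list medians then were -0.045 for glucocorticoid-responsive, -0.028 for fatty acid synthesis, -0.051 for mucous and -0.042 for granular duct genes. Smgc was at -0.016 in voom, -0.0078 with library totals, -0.049 with the replicate block and -0.039 in the 2-group fit, Chrm3 at -0.020 with library totals, and Zbtb16 at -0.31 in the 2-group fit. Of 46 list medians 19 changed sign in an alternative, 3 of them among the 15 lists with a median of at least 0.2 in size. With 3 libraries a group, and a floor of 3 counts at 0.0690 to 0.0825 CPM, small differences and rare transcripts were not resolved.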
